A study of Mus musculus with 16 samples.

Results

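A set of 10 immediate early genes outside the Fos and Jun families was followed in kidney and liver: *Egr1*, *Egr2*, *Egr3*, *Ier2*, *Ier3*, *Nr4a1*, *Dusp1*, *Btg2*, *Atf3* and *Klf4*. These 10 genes, of the 24984 genes counted, were chosen from the measured differences between shFos and NT libraries of this same study, so their values in that comparison are a description and carry no test. All 10 were found in all 16 count tables. Bulk RNA-seq had been carried out on kidney and liver from aged female C57BL/6 mice that received, by intravenous injection, an AAV8 vector with a short hairpin RNA against *Fos* (shFos) or a non-targeting hairpin (NT). There were 4 libraries for each tissue and vector, and the labels give an age of 24 months for all of them. That was the age at injection, and the organs were taken 3 months later. The shared background of all groups is therefore old age and exposure to AAV8. The promoter that drives the hairpin is not given in the sources used here, and AAV8 given by this route is known mainly for transducing hepatocytes. Nothing in the labels says whether a kidney and a liver with the same number came from the same mouse.

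Immediate early genes are transcribed within minutes of a stimulus and need no new protein synthesis. Their promoters are read by serum response factor with its ternary complex partners and by CREB, which are activated through MAP kinases, calcium and cAMP, and many of their transcripts are short-lived. In kidney and liver they respond to growth factors, hormones, ischaemia and tissue handling. Several of them feed back on the same route: the product of *Dusp1* dephosphorylates MAP kinases, and the EGR factors are held in check by the corepressors that *Nab1* and *Nab2* encode.

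Reads counted on genes ranged from 14437742 to 15015012 in NT kidneys and from 14194543 to 15534665 in shFos kidneys. Livers were sequenced a little deeper, with 17304620 to 18300277 counts in the NT group and 16652150 to 17651900 in the shFos group. Levels are given as CPM, the share of a library's counts scaled to a common size with TMM factors. A gene with no count could still have had up to 3, which equals 0.156 to 0.230 CPM by library on the same scale, and this floor covers counting error only. The labelled tissues carried their own markers, since *Alb* averaged 102468 CPM in NT livers against 88.6 CPM in NT kidneys, and *Umod* averaged 4858 CPM in NT kidneys against 0.173 CPM in NT livers. Liver NT replicate 4 stood apart from the other NT livers. Chi-square values over the genes, divided by the degrees of freedom, were 334 to 431 against them, its summed hepatocyte markers reached 47903.6 CPM against 123994 to 194232 CPM, and its summed neutrophil markers reached 169 CPM against 14.9 to 53.3 CPM. Kidney NT replicate 4 also stood apart, with values of 63.6 to 67.7 on the same scale against the other NT kidneys and with 12648.6 CPM of tubule markers against 21713.4 to 23578.1 CPM. Liver shFos replicate 3 had values of 55.7 to 72.5 against the other shFos livers, which had 19.9 to 25.5 among themselves. Values without these libraries are given beside some of the results that they moved.

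*Fos*, the target of the hairpin, is reported first because it checks the labels. It was counted at 6.70, 5.25, 4.23 and 5.28 CPM in NT kidney replicates 1 to 4 and at 2.57, 4.12, 3.93 and 2.30 CPM in shFos kidney replicates 1 to 4. All shFos kidneys lay below all NT kidneys, with a log2 fold change of -0.73 (SE 0.25). In the liver, *Fos* stood at 1.12, 2.36, 3.69 and 2.86 CPM in the NT group and at 1.63, 1.5, 2.76 and 1.37 CPM in the shFos group. These liver groups overlapped (log2 fold change -0.47, SE 0.38), so the transcript does not tell the liver labels apart library by library. Leaving out NT replicate 3 gave a liver value of -0.23, and leaving out shFos replicate 3 gave -0.75.

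The comparison of shFos with NT asks how transcripts differ once *Fos* is targeted in old animals. In the kidney, 9 of the 10 members had lower values in the shFos group and *Dusp1* had a higher value. The median log2 fold change of the members was -0.53, beside 0.00 over all 14892 genes tested, and the members summed to 280 ± 29.8 CPM in NT kidneys and to 216 ± 19.7 CPM in shFos kidneys (SD, n = 4 each). In the liver, 8 members passed the filter on low counts, of which 7 had lower values and *Klf4* a higher value, with a median of -0.44 beside -0.01 over all 13144 genes tested. Summed over all 10 members, NT livers had 114 ± 17.0 CPM and shFos livers 82.2 ± 26.1 CPM (SD, n = 4 each). In bulk tissue, fewer cells of a type and less RNA per cell cannot be told apart.

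With edgeR, no member of either tissue passed the test across all genes, while DESeq2 called members in both. In the kidney, edgeR called 0 genes (0%) and 0 members, while 4747 genes (31.9%) and 5 members had an unadjusted p under 0.05 and DESeq2 called 2732 genes (20.4%). DESeq2 called 4 members, all lower (*Egr1*, *Ier2*, *Nr4a1* and *Btg2*), against a background of 8.8% of genes called lower. All shFos kidneys lay below all NT kidneys for 3 members (*Egr1*, *Ier2* and *Btg2*), as they did for 8.04% of all genes. In the liver, edgeR called 0 genes (0%) and 0 members, while 886 genes (6.74%) and 3 members had an unadjusted p under 0.05 and DESeq2 called 38 genes (0.315%). DESeq2 called 1 liver member, *Ier3*, against 0.166% of genes called lower, and the liver groups were apart for 2 members (*Ier2* and *Ier3*) against 1.52% of all genes. Since these contrasts were used to choose the members, nothing is read from those counts. The kidney count rested on single libraries: edgeR called 4126 genes, *Ier2* and *Btg2* among them, without shFos replicate 1, and 3 genes, no member among them, without NT replicate 4. Leaving out NT replicate 4 of the tissue took the member median to -0.66 in the kidney and to -0.46 in the liver. Over all omissions of a library, the median of the members that passed ran from -0.66 to -0.39 in the kidney, the latter without NT replicate 1. In the liver it ran from -0.65 without NT replicate 1 to -0.24 without NT replicate 3, and it was -0.29 without shFos replicate 4. Without liver NT replicate 3, *Nr4a1* and *Dusp1* stood at -0.05, *Atf3* at 0.07 and *Klf4* at 0.30.

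**Figure D1:**
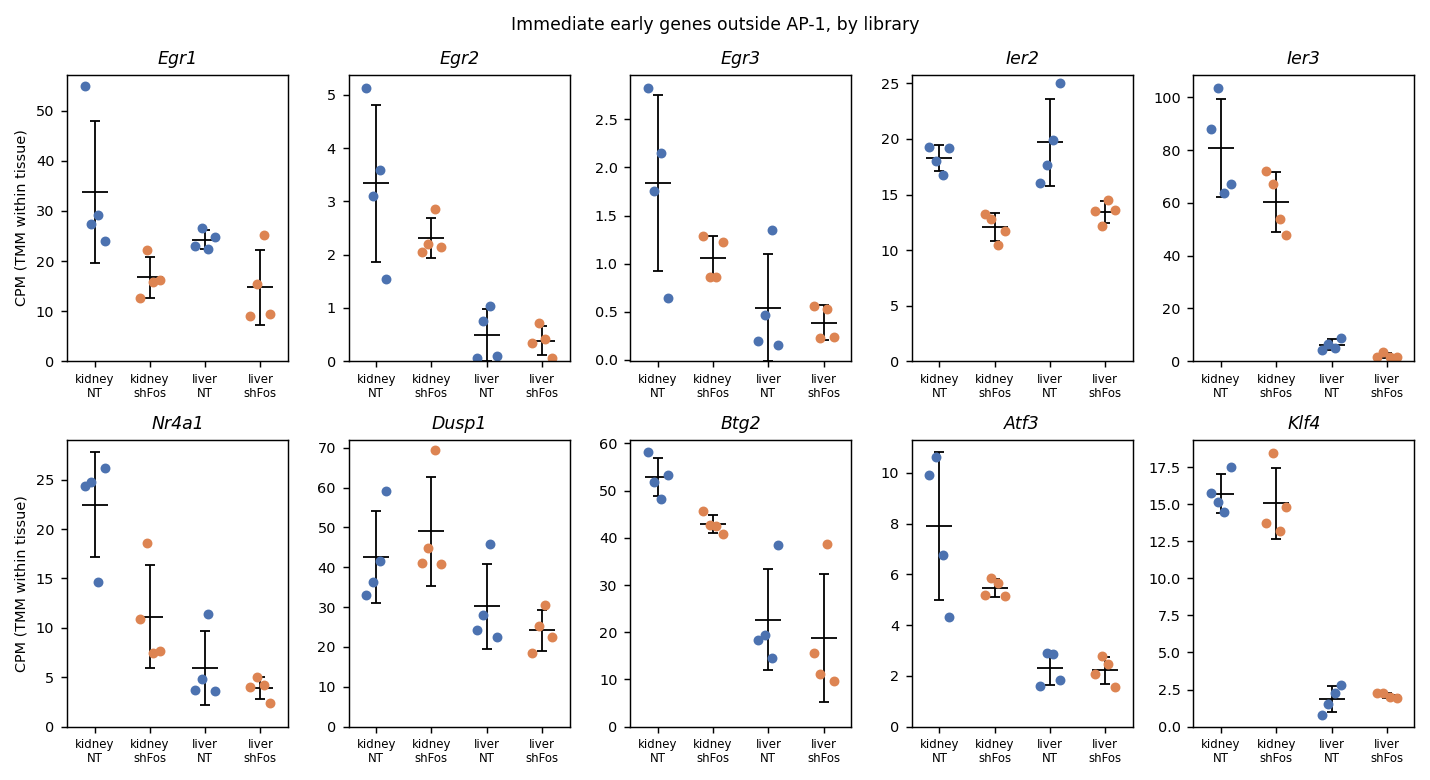
TMM-normalized CPM (y axis) of each member in the 16 libraries, with tissue and vector on the x axis. Each point is a library, and the horizontal mark and bar give the mean and SD of 4 libraries; in the kidney panels of *Ier2*, *Btg2* and *Egr1* all shFos points lie below all NT points, as they do for *Ier2* and *Ier3* in the liver, while the other pairs of groups overlap.

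The EGR genes encode zinc-finger transcription factors that bind GC-rich DNA. *Egr1* (ENSMUSG00000038418.7) has 2 exons and occupies bases 34859823 to 34864984 of chromosome 18 (mm10, + strand). It was measured at 54.8, 27.4, 29.2 and 24.0 CPM in NT kidneys and at 12.6, 22.3, 15.7 and 16.3 CPM in shFos kidneys. All shFos kidneys were below all NT kidneys, although NT replicate 1 was far above the other NT kidneys. The log2 fold change was -1.02 (SE 0.28), or -0.68 without NT replicate 1. In the liver, *Egr1* read 23.0, 26.6, 22.4 and 24.9 CPM in the NT group and 9.08, 15.4, 25.1 and 9.38 CPM in the shFos group. Here 3 of 4 shFos livers were below all NT livers and shFos replicate 3 lay among them (log2 fold change -0.72, SE 0.30, or -1.11 without that library).

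*Egr2* and *Egr3*, relatives of *Egr1* with roles in nerve myelination, muscle spindles and lymphocytes, were much scarcer. *Egr2* had 5.12, 3.10, 3.58 and 1.55 CPM in NT kidneys and 2.05, 2.19, 2.86 and 2.15 CPM in shFos kidneys, so the groups overlapped through NT replicate 4. Its log2 fold change was -0.53 (SE 0.34), and it was -0.24 without NT replicate 1 and -0.76 without NT replicate 4. *Egr3* had 2.82, 1.75, 2.15 and 0.644 CPM in NT kidneys and 1.28, 0.864, 0.858 and 1.23 CPM in shFos kidneys, again with NT replicate 4 lowest (log2 fold change -0.79, SE 0.42). Without that library the *Egr3* value was -1.08, and without NT replicate 1 it was -0.51. Both are rare transcripts in the liver, where *Egr2* had 1 to 20 counts and *Egr3* had 3 to 26 counts per library. They did not pass the liver filter, so the main fit did not test them. *Egr2* was at or under 3 counts in 3 livers and *Egr3* in 2. With no filter, and in a fit of all 16 libraries, all 10 members were tested in the liver and 0 were called. What difference could have been detected was not computed.

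*Ier2* encodes a small nuclear protein, and *Ier3* a stress-induced regulator of cell survival that is also a target of NF-kappaB. *Ier2* (ENSMUSG00000053560.4) is a single-exon gene on the - strand of chromosome 8, from 84661331 to 84662852. It had 19.2, 18.0, 16.7 and 19.2 CPM in NT kidneys and 13.2, 12.8, 10.4 and 11.7 CPM in shFos kidneys. The spread within each group was small and the groups were apart, with a log2 fold change of -0.60 (SE 0.11). In the liver, *Ier2* had 16.1, 17.7, 19.9 and 25.1 CPM in the NT group and 13.5, 12.2, 14.5 and 13.6 CPM in the shFos group. The liver groups were apart as well (log2 fold change -0.55, SE 0.15), and without NT replicate 4, the highest, the value was -0.43.

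*Ier3* (ENSMUSG00000003541.6) has 2 exons and lies on the + strand of chromosome 17, from 35821684 to 35822923. Its kidney levels were 87.9, 104, 63.9 and 67.3 CPM in the NT group and 72.2, 67.2, 53.8 and 48.0 CPM in the shFos group. Those groups overlapped (log2 fold change -0.42, SE 0.18). In the liver, *Ier3* was at 4.42, 6.51, 5.20 and 8.94 CPM in the NT group and at 1.57, 3.44, 1.58 and 1.55 CPM in the shFos group. All shFos livers were below all NT livers, shFos replicate 2 stood above the other shFos livers, and the log2 fold change was -1.62 (SE 0.34), or -1.41 without NT replicate 4, the highest. The study displayed *Ier3* for the liver and *Nr4a1* for the kidney on these same samples, so their direction here is not independent evidence. The change of *Ier3* in the liver minus that in the kidney was -1.19 on the log2 scale (SE 0.38), which is a description, as the same contrasts were used to choose the genes. By the same measure *Dusp1* stood at -0.50 (SE 0.35), and the other members ran from 0.04 for *Btg2* to 0.49 for *Atf3*.

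*Nr4a1* encodes an orphan nuclear receptor (Nur77) that binds DNA without a known obligate ligand. The gene (ENSMUSG00000023034.7) has 8 exons in the annotated transcript used here and spans 101254269 to 101274795 on the + strand of chromosome 15. It was counted at 24.4, 24.8, 14.6 and 26.1 CPM in NT kidneys and at 10.9, 18.6, 7.43 and 7.67 CPM in shFos kidneys. NT replicate 3 was low and shFos replicate 2 high, which made the groups overlap (log2 fold change -1.01, SE 0.31). Liver levels were 3.69, 4.78, 11.4 and 3.65 CPM in the NT group and 4.04, 5.0, 4.16 and 2.39 CPM in the shFos group. The liver value of -0.60 (SE 0.40) was -0.05 without NT replicate 3 and -0.79 without NT replicate 4.

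*Atf3*, a stress-induced factor of the CREB/ATF family, had 9.92, 10.6, 6.77 and 4.31 CPM in NT kidneys and 5.20, 5.85, 5.65 and 5.14 CPM in shFos kidneys. NT replicate 4 was the lowest of all 8 kidneys, so the groups overlapped (log2 fold change -0.53, SE 0.27, or -0.74 without that library). In the liver *Atf3* ranged from 1.55 to 2.88 CPM, with a log2 fold change of -0.05 (SE 0.29) that turned positive without NT replicate 2, NT replicate 3 or shFos replicate 4 (0.08 in the last case). *Klf4*, a Krüppel-like zinc-finger factor of epithelia and vessels, ranged from 13.2 to 18.5 CPM over the kidneys with a log2 fold change of -0.06 (SE 0.13), which was -0.01 without NT replicate 4 and -0.17 without shFos replicate 2. Its liver level was 0.791, 1.5, 2.24 and 2.80 CPM in the NT group and 2.24, 2.28, 1.99 and 1.91 CPM in the shFos group. The higher liver value (0.19, SE 0.35) turned to -0.06 without NT replicate 1 and was 0.45 without NT replicate 4.

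*Dusp1* and *Btg2* restrain signalling and growth. *Dusp1* is a phosphatase of MAP kinases, and *Btg2* is an antiproliferative protein that recruits the CCR4-NOT deadenylase. *Dusp1* had 33.1, 36.4, 41.7 and 59.2 CPM in NT kidneys and 41.0, 44.7, 69.5 and 40.9 CPM in shFos kidneys. It was the member with a higher value in shFos kidneys (log2 fold change 0.20, SE 0.23), and the value was -0.01 without shFos replicate 3 and 0.41 without NT replicate 4. In the liver, *Dusp1* had 24.3, 28.1, 45.9 and 22.5 CPM in the NT group and 18.4, 25.3, 30.6 and 22.4 CPM in the shFos group. The liver groups overlapped (log2 fold change -0.32, SE 0.24), and without NT replicate 3, the highest, the value was -0.05. The annotated span of *Dusp1* overlaps exons of *Ergic1* on the other strand, and counting ignored strand, so its level is uncertain.

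*Btg2* (ENSMUSG00000020423.6) has 2 exons on the - strand of chromosome 1, from 134075170 to 134079120. Its kidney levels were 58.1, 51.9, 48.3 and 53.3 CPM in the NT group and 45.7, 42.7, 42.6 and 40.8 CPM in the shFos group. The kidney groups were apart and their spread was small, with a log2 fold change of -0.30 (SE 0.08). In the liver, *Btg2* had 18.3, 19.4, 14.5 and 38.5 CPM in the NT group and 15.6, 11.1, 38.8 and 9.68 CPM in the shFos group. Each liver group held a library far above the rest, NT replicate 4 and shFos replicate 3. The liver log2 fold change was -0.27 (SE 0.48), and it was 0.10 without NT replicate 4 and -0.91 without shFos replicate 3.

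Promoter sequence was a feature that the choice of members did not use. RefSeq promoters (GRCm38.p6) were matched for 7 of the 10 members, with 11 start sites, and were missing for *Egr1*, *Egr3* and *Ier2*. The 250 bases before each start were searched on both strands. The cAMP response element, its half-site and the CArG box are letters that factors upstream of immediate early genes are known to bind. The letters of the EGR site, the AP-1 site and the TATA box were searched as well. Members are counted by gene, over any of their start sites, while the shares are of promoters, so both members and their start sites are given. The cAMP response element TGACGTCA was found in *Dusp1* and *Btg2* (2 of the 11 start sites), and in 1.55% of the 32851 promoters of the table. Its half-site TGACG, which lies within the full element, was found in 6 members (*Egr2*, *Nr4a1*, *Dusp1*, *Btg2*, *Atf3* and *Klf4*), at 8 of the 11 start sites, and in 17.8% of all promoters. Of those start sites 3 are of *Egr2*, with overlapping windows that hold the same half-sites. Of the 27025 genes in the table, 19.8% held the half-site in any of their promoters. An EGR site, GCGNGGGCG, was found in *Nr4a1*, *Btg2* and *Klf4*, at 3 start sites, and in 4.7% of all promoters. A CArG box, the element of serum response factor, was found at 4 start sites of *Egr2*, 3 of whose windows overlap, and in 1.47% of promoters. The AP-1 site TGANTCA was found in 0 members and 6.75% of promoters, and the TATA box letters TATAAA in 0 members and 12.4%. By gene, 1.77% held the full element, 5.33% the EGR site, 1.62% the CArG box, 7.82% the AP-1 site and 14.3% TATAAA. A match is a description of letters, not a bound site.

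The windows of *Nr4a1* and *Btg2* are printed because both genes hold the half-site and the EGR letters and had lower values in shFos kidneys before and after a correction for GC content. *Klf4* holds the same letters and is not printed, since its kidney value of -0.06 changed sign with that correction. The printed windows run 5′ to 3′ toward the start, in lower case, with the full element, half-sites and EGR sites of either strand in capitals (CGTCA is the half-site read on the other strand). The *Nr4a1* window is chr15:101266596-101266845 on the + strand, inside the annotated span of the gene but in none of its exons. Its half-sites begin 233, 213, 69 and 40 bases before the start and its EGR site 60 bases before. The *Btg2* window is chr1:134079156-134079405 on the - strand, outside all annotated exons, with the full element 166 to 159 bases and the EGR site 131 to 123 bases before the start.
Nr4a1: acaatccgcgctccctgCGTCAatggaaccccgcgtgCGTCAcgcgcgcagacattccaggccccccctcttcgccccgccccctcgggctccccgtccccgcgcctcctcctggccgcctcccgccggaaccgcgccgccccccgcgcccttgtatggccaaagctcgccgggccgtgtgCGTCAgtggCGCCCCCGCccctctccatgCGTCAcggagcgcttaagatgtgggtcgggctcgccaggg
Btg2: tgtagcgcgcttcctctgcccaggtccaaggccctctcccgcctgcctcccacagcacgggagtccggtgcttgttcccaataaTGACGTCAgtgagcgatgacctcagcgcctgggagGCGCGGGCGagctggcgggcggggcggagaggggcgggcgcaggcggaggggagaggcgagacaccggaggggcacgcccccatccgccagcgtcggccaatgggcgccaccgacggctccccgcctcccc

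The GC content of transcripts moved with the vector group in the kidney, so the members were also read against it. Over the kidney genes, the trend of the log2 fold change ran from 0.18 at a GC content of 41.9% (the 10th percentile) to -0.21 at 58.2% (the 90th). Members had exonic GC contents from 49.7% for *Btg2* to 60.9% for *Ier2*, and 9 of 10 lay above the median of kidney genes, 50.2%. The GC balance of a kidney was the trend of its deviations from the mean of the 8 kidneys, at the 90th minus at the 10th percentile. It was 0.10, 0.32, 0.17 and 0.20 (log2) in NT kidneys and 0.09, -0.13, -0.40 and -0.32 in shFos kidneys. These values compare kidneys with each other and do not say whether high-GC genes were more abundant than low-GC genes. In shFos replicate 1, the kidney whose omission raised the number of called genes, the balance was nearest to the NT side. After a GC offset for each library, 8 of the 10 members had lower values in shFos kidneys and their median was -0.40, beside 0.03 over all genes.

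Members differed in how far the GC offset moved them. *Ier2*, with the highest GC content, went from -0.60 to -0.32, whereas *Btg2*, with the lowest, stood at -0.30 before and -0.31 after. *Egr1* went from -1.02 to -0.81 and *Nr4a1* from -1.01 to -0.82. *Egr2* was at -0.50, *Egr3* at -0.77, *Atf3* at -0.48 and *Ier3* at -0.30 after the offset. *Dusp1* went up from 0.20 to 0.35, and *Klf4* changed sign from -0.06 to 0.06. The liver trend was flat, at -0.01 for both percentiles, and the offset left the liver median of the members at -0.44. With GC content and length corrected together the kidney median was -0.37 and *Ier3* stood at -0.23, and with the GC offset and a block for the replicate number the median was -0.36. Why the kidney libraries differ in GC balance was not tested.

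**Figure D2:**
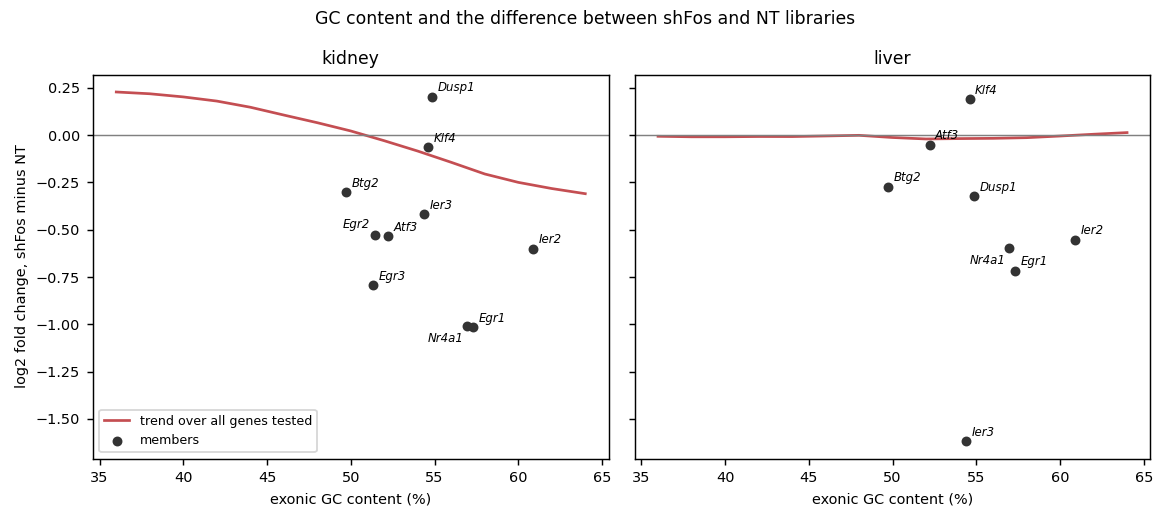
Trend of the log2 fold change (shFos minus NT, y axis) against exonic GC content in percent (x axis) in kidney and liver, with the members as labelled points. The kidney line falls from 0.18 to -0.21 between the 10th and 90th percentiles of GC content while the liver line is flat, and most kidney members lie below the line.

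**Figure D3:**
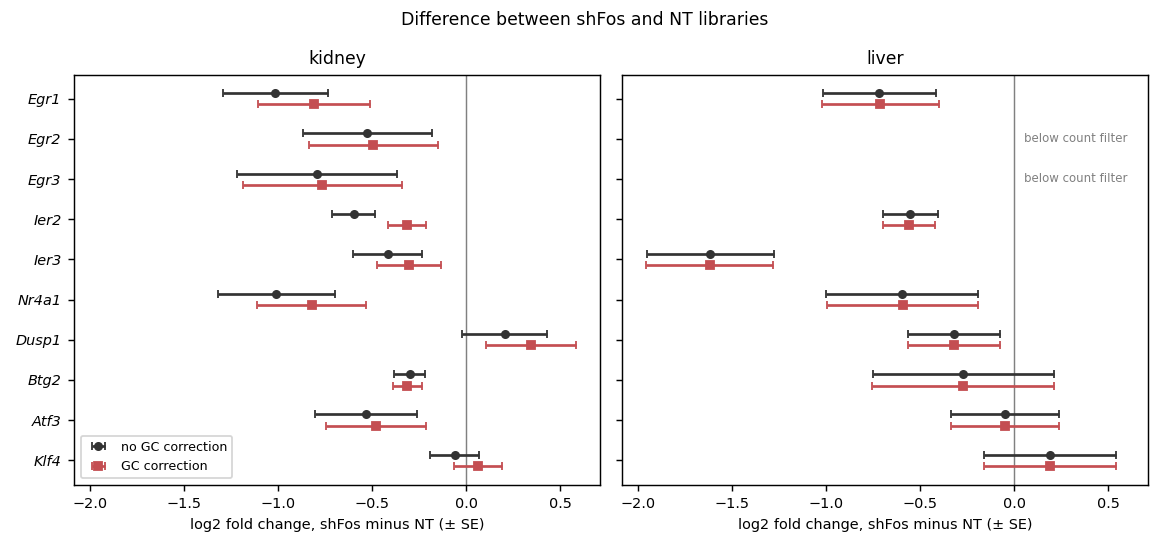
Log2 fold change of each member (shFos minus NT, x axis) in kidney and liver, with bars of 1 standard error, before and after the GC offset. In the kidney the offset moves *Ier2* from -0.60 to -0.32 and leaves *Btg2* at -0.31; in the liver both values of each gene nearly coincide.

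The difference between kidney and liver was not used to choose the members, and this contrast was tested within each vector group. The choice did use the shFos and NT levels within each tissue, and the same libraries enter the tissue contrasts. Members with low shFos kidneys, such as *Egr1*, carry those levels into the shFos contrast, so calls there are not independent of the choice. *Ier3* and *Klf4* were higher in the kidney and *Ier2* was higher in the liver, in NT and in shFos libraries alike. In the NT group, *Ier3* averaged 58.1 ± 13.4 CPM (SD, n = 4) in the kidney and 8.96 ± 2.90 CPM (SD, n = 4) in the liver, a 6.47-fold difference. *Klf4* averaged 11.3 ± 0.908 CPM in the kidney and 2.63 ± 1.28 CPM in the liver (SD, n = 4 each), a 4.27-fold difference. *Ier2* averaged 13.2 ± 0.857 CPM in the kidney and 28.1 ± 5.90 CPM in the liver (SD, n = 4 each), 2.14-fold higher in the liver. These CPM were scaled over both tissues together and so differ from those scaled within a tissue.

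Among the NT libraries, edgeR called 3 of the 10 members between the tissues, against 60% of the 14875 genes tested (8931 genes). *Egr2* and *Egr3* passed the filter of this contrast through their kidney counts alone, and a gene that enters in this way tends to differ, so their calls are not read. Of the other 8 members edgeR called 3, DESeq2 called 4 beside 63.2% of genes, and edgeR with upper-quartile scaling called 5 beside 59.7%. *Ier3* had a log2 difference (kidney minus liver) of 2.69 (SE 0.26, edgeR adjusted p = 2.19e-05). *Klf4* followed with 2.10 (SE 0.34, edgeR adjusted p = 0.000559) and *Ier2* with -1.10 (SE 0.16, edgeR adjusted p = 0.000259). For each of these 3 genes the 4 libraries of a tissue were apart from the 4 of the other. The share of all genes apart between tissues was not counted, so nothing is read from that separation. Without a test, the value of *Egr2* was 1.74, or 1.91 with the replicate number as a block, and that of *Egr3* was 0.74, which ran from 0.40 without liver NT replicate 4 to 1.72 without liver NT replicate 3. *Nr4a1* (0.93, edgeR adjusted p = 0.0648), *Atf3* (0.79, adjusted p = 0.0724), *Egr1* (-0.50, adjusted p = 0.111) and *Dusp1* (-0.49, adjusted p = 0.139) did not pass, and neither did *Btg2* (0.24). *Nr4a1* was called by DESeq2 (0.93, adjusted p = 0.0371) and with upper-quartile scaling (1.11, edgeR adjusted p = 0.0336), as was *Atf3* in the latter (0.96, adjusted p = 0.0364). Single libraries decided some of these calls. Without liver NT replicate 3, *Nr4a1* (1.46) was called, *Dusp1* stood at -0.24 and *Btg2* at 0.05, and without liver NT replicate 4, *Btg2* (0.59) was called. Without liver NT replicate 1 *Btg2* stood at 0.12. Without kidney NT replicate 4, *Atf3* (0.99) and *Dusp1* (-0.70) were called, and without kidney NT replicate 1, *Egr1* (-0.84). The adjusted p of *Ier3* ranged from 4.15e-23 to 0.000222 over the 16 alternatives and that of *Klf4* from 2.09e-10 to 0.00253.

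Among the shFos libraries, edgeR called *Ier3*, *Klf4*, *Ier2* and *Egr1*, against 69.5% of the 14628 genes tested (10172 genes), and *Egr2*, which again passed the filter through the kidney alone. *Ier3* averaged 42.1 ± 8.71 CPM in the kidney and 2.85 ± 1.32 CPM in the liver (SD, n = 4 each), and its log2 difference was 3.88 (SE 0.27, edgeR adjusted p = 6.38e-07). *Klf4* had a difference of 1.83 (SE 0.17, edgeR adjusted p = 4.33e-06) and *Ier2* of -1.16 (SE 0.12, edgeR adjusted p = 1.34e-05). *Egr2* had a difference of 1.57 (SE 0.45) and *Egr3* of 0.44 (0.24 without liver shFos replicate 2 and 0.67 without liver shFos replicate 1), given without a test. *Egr1* was higher in the liver (-0.82, SE 0.32, edgeR adjusted p = 0.0443), with overlapping libraries. It was called in 8 of 17 settings. The call was lost with upper-quartile scaling (-0.70, edgeR adjusted p = 0.0847), with no filter (-0.79, adjusted p = 0.0734) and with the GC offset (-0.79, adjusted p = 0.0597). It was also lost without liver shFos replicate 2 (-0.80), liver shFos replicate 3 (-0.45) or kidney shFos replicates 1 (-0.72), 3 (-0.79) or 4 (-0.81). With total counts in place of TMM the value was 0.13, and over the 16 alternatives its adjusted p ranged from 0.0185 to 0.716. *Btg2* was called without liver shFos replicate 3 (0.81). The remaining members, *Nr4a1* (0.52), *Dusp1* (0.01), *Btg2* (0.20) and *Atf3* (0.29), did not pass. Single libraries moved these values as well: *Nr4a1* stood at 0.14 without kidney shFos replicate 2, *Atf3* at 0.16 and *Btg2* at -0.02 without liver shFos replicate 4, and *Dusp1* ran from -0.19 without kidney shFos replicate 3 to 0.13 without liver shFos replicate 3. Whether the tissue difference itself changed between vector groups was not tested.

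The scaling of libraries matters between tissues of unlike composition. With total counts in place of TMM, chosen after seeing the data, the median of all genes moved to 1.08 in the NT and 0.98 in the shFos contrast, from 0.04 in both. Upper-quartile scaling moved it to 0.21 and 0.16. Relative to that median, *Ier2* stood at -1.14 with TMM and at -1.15 with total counts in the NT libraries, and *Ier3* at 2.65 and 2.64. Unadjusted for the median, total counts took *Ier2* to -0.07 and out of the call and put *Egr1* (0.54) and *Dusp1* (0.53) above 0 in the NT libraries. These signs follow from the shift of all genes, since relative to the median *Egr1* stood at -0.54 with either scaling and *Dusp1* at -0.53 with TMM and -0.55 with total counts. In the shFos libraries *Egr1* stood at -0.85 relative to the median with either scaling, and in both contrasts all 10 members had the same sign relative to the median with TMM and with total counts. Over 17 settings of each contrast, *Ier3* and *Klf4* were called in 17 of 17 in both vector groups and *Ier2* in 16.

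**Figure D4:**
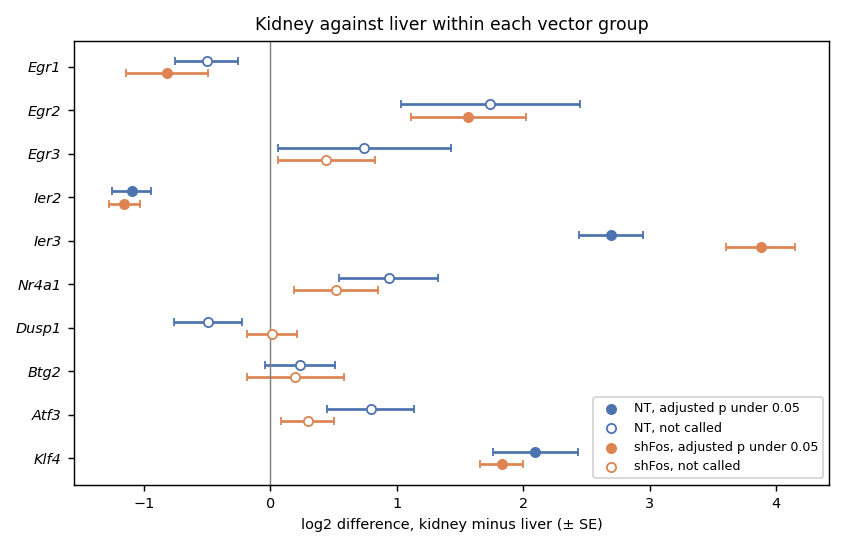
Log2 difference between kidney and liver (x axis, positive values higher in the kidney) for each member, in NT and in shFos libraries, with bars of 1 standard error (n = 4 libraries a tissue) and filled points for an adjusted p under 0.05. *Ier3* and *Klf4* lie far to the kidney side and *Ier2* to the liver side in both groups, *Egr2* and *Egr3* passed the filter through the kidney alone, and with total counts in place of TMM, which shift the median of all genes to the kidney side, *Egr1* and *Dusp1* move across 0 in the NT libraries and *Egr1* in the shFos libraries.

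Set in order by CPM per kilobase of transcript, the members spanned a wide range within a tissue. In NT kidneys *Ier3* led with a mean level of 71.3 CPM per kb, followed by *Dusp1* (21.4), *Btg2* (19.3), *Ier2* (12.0), *Nr4a1* (8.81), *Egr1* (7.55), *Klf4* (5.20), *Atf3* (3.99), *Egr2* (1.13) and *Egr3* (0.467). In 5 of the 9 neighbouring pairs the libraries overlapped, and the pairs apart were *Ier3* and *Dusp1*, *Btg2* and *Ier2*, *Ier2* and *Nr4a1*, and *Atf3* and *Egr2*. In NT livers *Dusp1* led with 15.2 CPM per kb, followed by *Ier2* (12.9), *Btg2* (8.26), *Ier3* (5.54), *Egr1* (5.40), *Nr4a1* (2.31), *Atf3* (1.16), *Klf4* (0.605), *Egr2* (0.165) and *Egr3* (0.138). Liver neighbours overlapped in 8 of 9 pairs, the exception being *Egr1* and *Nr4a1*. In shFos kidneys the order was *Ier3* (53.3 CPM per kb), *Dusp1* (24.6), *Btg2* (15.7), *Ier2* (7.92), *Klf4* (4.97), *Nr4a1* (4.36), *Egr1* (3.73), *Atf3* (2.75), *Egr2* (0.780) and *Egr3* (0.269). There 3 of 9 neighbouring pairs overlapped, those from *Klf4* down to *Atf3*. In shFos livers *Dusp1* (12.1 CPM per kb) came before *Ier2* (8.83), *Btg2* (6.85), *Egr1* (3.29), *Ier3* (1.80), *Nr4a1* (1.53), *Atf3* (1.12), *Klf4* (0.695), *Egr2* (0.129) and *Egr3* (0.0983). In that group 7 of 9 pairs overlapped, and *Klf4* was apart from both of its neighbours.

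Within a group, the members did not share a single order of the libraries. In the kidney, NT replicate 1 was the highest of its group for 5 members (*Egr1*, *Egr2*, *Egr3*, *Ier2* and *Btg2*), while NT replicate 3 was the lowest for 5 (*Ier2*, *Ier3*, *Nr4a1*, *Btg2* and *Klf4*). NT replicate 4 was the highest for *Nr4a1*, *Dusp1* and *Klf4* and the lowest for the EGR genes and *Atf3*. Among shFos livers, replicate 4 was the lowest for 6 members, the scarce *Egr2* among them, and replicate 3 was the highest for *Egr1*, *Ier2*, *Dusp1* and *Btg2*. The summed level of the 10 members was 311, 293, 241 and 273 CPM in NT kidneys and 218, 236, 222 and 189 CPM in shFos kidneys. In the liver it was 92.3, 109, 127 and 128 CPM in the NT group and 67.4, 78.3, 120 and 62.8 CPM in the shFos group, so the liver groups overlapped through shFos replicate 3.

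**Figure D5:**
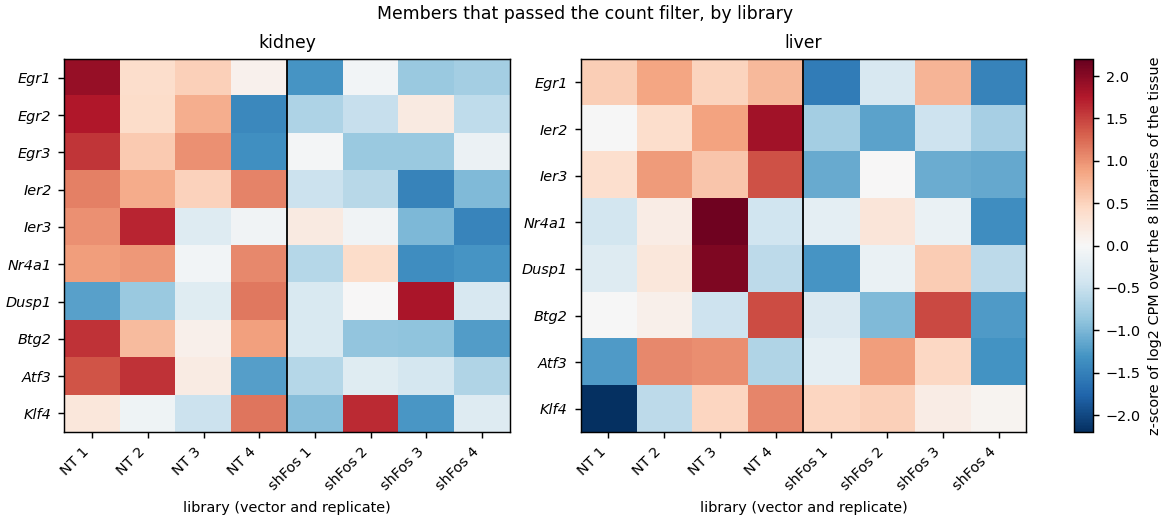
Z-scores of log2 CPM over the 8 libraries of each tissue, with members that passed the count filter on the y axis and libraries on the x axis, NT left of the black line and shFos right of it. Colours mark values above or below the mean of the 8 libraries; kidney NT replicate 1 is the highest of its group for 5 members and liver shFos replicate 4 the lowest of its group for 5 of the 8 shown.

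Other immediate early genes were read from a list of 35 genes. The counts of this list and of those that follow stand beside the shares over all genes, which were 31.9% in the kidney and 6.74% in the liver for an unadjusted p under 0.05, and 20.4% and 0.315% for a call by DESeq2. In the kidney 34 passed the filter, 24 with lower and 10 with higher values in the shFos group and a median of -0.25, and edgeR called 0 while 12 of the 34 (10 lower) had an unadjusted p under 0.05 and DESeq2 called 9 (7 lower). *Klf10*, a TGF-beta-induced zinc-finger factor, had 35.7 ± 3.56 CPM in NT and 21.5 ± 5.22 CPM in shFos kidneys (SD, n = 4 each; log2 fold change -0.73, SE 0.16, edgeR adjusted p = 0.0660). The chemokine gene *Cxcl1* had a log2 fold change of -1.25 (SE 0.28, edgeR adjusted p = 0.0660) and *Ier5l* of -0.51 (SE 0.15, edgeR adjusted p = 0.0698), which the GC offset brought to -0.20. *Ccn2*, a matricellular gene, had a higher value, 0.69 (SE 0.17, edgeR adjusted p = 0.0660). In the liver 29 passed, 23 lower and 6 higher with a median of -0.22 (-0.14 without shFos replicate 1 and -0.41 without shFos replicate 2), and edgeR called 0 while 8, all lower, had an unadjusted p under 0.05 and DESeq2 called 0. The liver genes of smallest p were *Trib1* (-0.84, SE 0.22, edgeR adjusted p = 0.712), *Plk3* (-0.37, SE 0.12, adjusted p = 0.714), *Klf10* (-0.98, SE 0.33, adjusted p = 0.714) and *Csrnp1* (-0.75, SE 0.27, adjusted p = 0.714). *Egr4*, the remaining EGR gene, had 0 counts in all 8 livers. *Gadd45b*, *Maff* and *Socs3* of this list were also displayed by the study for the kidney on these samples, so the list is not independent evidence of direction.

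Factors and kinases upstream of the members were read from a list as well. Of 24 such genes, 10 had lower and 14 higher values in the shFos group in each tissue, with medians of 0.07 in the kidney and 0.05 in the liver, which were 0.02 and -0.00 without NT replicate 4 of the tissue, 0.12 without kidney NT replicate 2 and 0.08 without liver NT replicate 1. After the GC offset 6 of the 24 kidney genes were lower, with a median of 0.09. Without that offset, edgeR called 0 in both tissues. In the kidney 5 genes had an unadjusted p under 0.05 and DESeq2 called 2, all of them higher, and in the liver 1 gene, also higher, had an unadjusted p under 0.05 and DESeq2 called 0. The list summed to 1169.6 to 1189.6 CPM in NT kidneys and to 1190.6 to 1293.7 CPM in shFos kidneys, so all shFos kidneys lay above all NT kidneys, shFos replicate 1 by the least. The share of all genes apart in this direction was not counted. Nothing is therefore read from that separation, or from that of *Nab1* below. *Rps6ka3*, the kinase RSK2, had the smallest p in the kidney (0.60, SE 0.14, edgeR adjusted p = 0.0660). In the liver the genes of smallest p were *Elk3* (0.41, SE 0.17, edgeR adjusted p = 0.731) and *Crtc3* (-0.34, SE 0.17, adjusted p = 0.734). The EGR corepressors went in unlike directions in the kidney. *Nab1* went from 52.4 ± 2.07 to 67.7 ± 5.61 CPM (SD, n = 4 each), with all shFos kidneys above all NT kidneys (0.37, SE 0.08, edgeR adjusted p = 0.0660, DESeq2 adjusted p = 0.00378). *Nab2* had a log2 fold change of -0.33 (SE 0.12, edgeR adjusted p = 0.104), which the GC offset brought to -0.05. In the liver the values were -0.04 for *Nab1* and -0.26 for *Nab2*.

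Lists of neighbouring stress and timing programmes are given beside the members, with 0 genes called by edgeR in each. The Fos and Jun family had lower values for all 6 kidney genes and all 5 liver genes that passed, with medians of -0.46 and -0.47. These genes include *Fos*, the target of the hairpin, and the liver median is its own value. Kidney *Jun* (-0.01, SE 0.15) and liver *Jund* (-0.09, SE 0.11) were near 0. In the kidney 5 of 6 were lower without NT replicate 1, NT replicate 2 or shFos replicate 1. After the GC offset 4 of the 6 kidney genes were lower and the kidney median was -0.25. In this family 4 of 6 kidney and 2 of 5 liver genes, all lower, had an unadjusted p under 0.05 and DESeq2 called 3 and 0. *Junb* led in the kidney (-0.55, SE 0.15, edgeR adjusted p = 0.0660, or -0.25 after the GC offset) and *Jun* in the liver (-0.58, SE 0.17, adjusted p = 0.714). Clock genes in the kidney had 9 lower and 5 higher values and a median of -0.71, with 11 of 14 (8 lower) at an unadjusted p under 0.05 and 9 (6 lower) called by DESeq2. *Per3* had the smallest p, with 24.6 ± 5.29 CPM in NT and 7.46 ± 1.68 CPM in shFos kidneys (SD, n = 4 each; log2 fold change -1.72, SE 0.21, edgeR adjusted p = 0.0660, DESeq2 adjusted p = 1.05e-09). In the liver 8 clock genes were lower and 6 higher with a median of -0.17, 3, all lower, had an unadjusted p under 0.05, DESeq2 called 0, and *Nr1d1* led (-2.54, SE 0.87, edgeR adjusted p = 0.714). The liver clock median was 0.01 without NT replicate 1, -0.05 without NT replicate 2 and -0.29 without NT replicate 3. The hour of collection is not given in the sources used here, and its part in these values was not tested.

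Heat shock genes mostly had higher values, in 8 of 9 kidney genes (median 0.37) and 8 of 8 liver genes (median 0.28). Without liver NT replicate 4, 6 of the 8 liver genes were higher (median 0.13), without liver NT replicate 1 the liver median was 0.49, and the kidney median was 0.23 without shFos replicate 3. Unadjusted p was under 0.05 for 5 of 9 kidney genes and 1 of 8 liver genes, all higher, and DESeq2 called 4 and 0, beside the shares over all genes given above. The chaperone gene *Hspa4l* led in the kidney (0.89, SE 0.10, edgeR adjusted p = 0.0660, DESeq2 adjusted p = 3.78e-11) and *Hspb1* in the liver (0.92, SE 0.33, edgeR adjusted p = 0.714). Of the 8 glucocorticoid-responsive genes, 5 were lower in the kidney (median -0.63) and 6 in the liver (median -0.46). These directions rested on NT replicate 4 of each tissue, without which 2 were lower in the kidney (median 0.67) and 4 in the liver (median 0.09). Among them 4 kidney genes (2 lower) and 3 liver genes (2 lower) had an unadjusted p under 0.05, and DESeq2 called 3 in the kidney (2 lower) and 1, higher, in the liver. *Sgk1* led in the kidney with a higher value (0.94, SE 0.23, edgeR adjusted p = 0.0660) and *Tsc22d3* in the liver (0.75, SE 0.17, edgeR adjusted p = 0.712, DESeq2 adjusted p = 0.0320). *Per1* belongs to the immediate early, the clock and the glucocorticoid lists.

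Macrophage and neutrophil markers had lower values in shFos than in NT livers, beside the lower values of the members. All 9 macrophage markers had lower values in shFos livers (median -0.67), none at an unadjusted p under 0.05, with *Lyz2* the most abundant at 158 CPM. Their sum was 312, 721, 1604 and 783 CPM in NT livers and 583, 759, 424 and 453 CPM in shFos livers, so the groups overlapped and NT replicate 3, the highest liver for *Nr4a1* and *Dusp1*, was also the highest here. Without that library 5 of the 9 were lower, with a median of -0.12. All 8 neutrophil markers that passed, of 9, had lower values (median -1.86), with *S100a9* the most abundant at 13.2 CPM. Their sum was 30.5, 53.3, 14.9 and 169 CPM in NT livers and 50.2, 7.11, 8.68 and 5.20 CPM in shFos livers, and NT replicate 4, the highest NT liver for *Ier2*, *Ier3* and *Btg2*, led here as well. Without it 6 of the 8 neutrophil markers were lower, with a median of -0.74, and without shFos replicate 1 the median was -3.05. Of the 8 fibroblast and mural markers, 7 had higher values (median 0.65), and their sum, led by *Dcn* at 209 CPM, was 186, 234, 268 and 334 CPM in NT livers and 322, 313, 367 and 290 CPM in shFos livers. Hepatocyte markers, led by *Alb*, were higher for 6 of 8 (median 0.17, or 0.33 without NT replicate 1), and for 4 of 8 without shFos replicate 3 (median 0.09). Endothelial markers were higher for 4 of 7 (median 0.11, or 0.25 without NT replicate 3), and for 3 of 7 without shFos replicate 1 (median -0.00), and lymphocyte markers for 4 of 8 (median 0.07). The most abundant endothelial marker, *Stab2* at 39.3 CPM, had a lower value (-0.23), and the most abundant lymphocyte marker, *Jchain* at 14.1 CPM, a higher one (1.86). The lymphocyte median was -0.24 without NT replicate 4 and 0.90 without NT replicate 3. Of the tubule markers 2 of 8 passed in the liver, both higher, with *Kap* at 0.856 CPM. EdgeR and DESeq2 called 0 genes of these lists in the liver, and unadjusted p was under 0.05 for 1 neutrophil marker (lower) and for 3 fibroblast and mural, 2 hepatocyte, 1 endothelial, 1 lymphocyte and 1 tubule marker (all higher), beside 6.74% of all liver genes. The part of cell composition in the member values was not tested.

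In the kidney, endothelial markers had higher values for 6 of 7 genes (median 0.31), led by *Emcn* at 106 CPM. Their sum was 412, 418, 412 and 333 CPM in NT kidneys and 504, 495, 424 and 441 CPM in shFos kidneys, with all shFos kidneys above all NT kidneys, and 6 genes (1 lower) had an unadjusted p under 0.05 while DESeq2 called 3 (1 lower), beside 31.9% and 20.4% of all kidney genes. Tubule markers were higher for 6 of 8 (median 0.34), led by *Kap* at 8976 CPM, with sums of 21713.4, 23578.1, 22876.6 and 12648.6 CPM in NT and 26456.7, 24041.5, 16599.7 and 43534.2 CPM in shFos kidneys. DESeq2 called 3 of the 8 (1 lower) and 3 (1 lower) had an unadjusted p under 0.05, and the median was 0.16 without shFos replicate 4. Fibroblast and mural markers were higher for 5 of 8 (median 0.11, or 0.04 without NT replicate 4 and 0.20 without NT replicate 3), with 1, higher, at an unadjusted p under 0.05 and 1, higher, called by DESeq2, while *Dcn*, the most abundant at 149 CPM, had a lower value (-0.28). Lymphocyte markers were lower for 6 of 8 (median -0.29, or 0.23 without NT replicate 2 and -0.67 without NT replicate 4). The most abundant of them, *Jchain* at 155 CPM, went the other way (1.22), with all shFos kidneys above all NT kidneys. The share of all genes apart in this direction was not counted, so nothing is read from this separation or that of the endothelial sum. The lymphocyte sum was 206, 137, 244 and 15.3 CPM in NT and 199.8, 312, 230.4 and 254 CPM in shFos kidneys, so NT replicate 4 was far below the rest. Macrophage markers were lower for 4 of 7 (median -0.03), and the sign of this median turned with single libraries. It was 0.15 without NT replicate 2, 0.03 without NT replicate 3, 0.05 without shFos replicate 1 and -0.25 without NT replicate 4, and *Lyz2*, the most abundant at 237 CPM, was at 0.08. Hepatocyte markers were lower for 5 of 8 (median -0.40, or -0.08 without NT replicate 1, -0.09 without NT replicate 4 and -0.68 without shFos replicate 1), with *Pck1*, the most abundant at 2336 CPM and also expressed by tubules, at 0.28. Both neutrophil markers that passed were lower (median -0.97) and both were higher without NT replicate 4 (median 0.48), with *S100a9* the most abundant at 2.93 CPM. DESeq2 called 0 of these 4 lists, and 1 hepatocyte marker, lower, had an unadjusted p under 0.05. EdgeR called 0 genes of the kidney lists, and no marker was at 0 in all 8 libraries of a tissue.

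The genes whose pattern was most like the members were sought by correlation with the mean z-score of the members over the 8 libraries of a tissue, which differ in vector group and GC balance. In the kidney these were *Rgs16* (Pearson r 0.957), *Kif19a* (0.953), *Id3* (0.939), *Ctbp1* (0.938) and *Nr2c2ap* (0.936). In the liver they were *Slc28a2* (Pearson r 0.982), *Nfkbie* (0.964), *Cyfip2* (0.959), *Gm1966* (0.954) and *Cybc1* (0.946). *Fos* itself had an r of 0.890 in the kidney and 0.883 in the liver. These are the highest of all genes tested, over 8 libraries, and are given without a p.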

How the data were processed

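RNA-seq of kidney and liver, 4 libraries for each tissue and vector, was used. Per the study's methods and the submitters' processing notes, the authors trimmed reads with Trimmomatic 0.39, aligned them to mm10 with HISAT2 2.2.1 and counted them per gene with HTSeq 0.12.4 without regard to strand. The deposited tables hold raw counts for 24984 genes and 5 summary lines, which were left out. Reads on no gene made up 13.4% to 26.7% and ambiguous reads 1.84% to 2.64%. GENCODE M21, which holds 98.2% of the symbols, gave positions, GC content and lengths; the annotation behind the counts can differ. No replicate pair differed by as little as counting noise (lowest chi-square per degree of freedom 7.17).

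EdgeR 4.0.16 (R 4.3.3) fitted each contrast (low counts removed by filterByExpr, TMM, robust quasi-likelihood test, Benjamini-Hochberg adjustment over all genes tested, called at 0.05), shFos with NT within a tissue and kidney with liver within a vector group, 8 libraries each. DESeq2 1.42.0 was the alternative test, and its shares are of the genes it gave an adjusted p. The labels do not say that replicates are separate mice, and p-values measure only the spread between these samples. Log2 CPM used a prior count of 2. The GC offset was a lowess trend (span 0.3) per library. Code was tested on simulated data. Other alternatives were upper-quartile scaling, no filter, a mean of at least 10 counts, newer dispersion, a fit of all 16 libraries, GC with length, a block for the replicate number, and leaving out each library. Total counts, the GC offset between tissues, and the gene lists with each library left out were added after seeing the data.

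The members and lists were chosen with earlier results of these data known. Genes named are the members and *Fos*, the 4 other immediate early genes and 2 upstream genes of smallest unadjusted p per tissue, *Nab1*, *Nab2*, the gene of smallest p of the Fos and Jun, clock, heat shock and glucocorticoid lists, the most abundant gene and the genes at 0 of each cell type list (kidney tubule, hepatocyte, macrophage, neutrophil, endothelial, lymphocyte, fibroblast and mural), and the 5 genes most like the members. *Gadd45b*, *Maff* and *Socs3* were added to these names once their values had been seen, and *Umod* as a tissue marker. All genes that these choices cover are named, except 1 that was left out.

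Whether replicate numbers pair samples was checked by the correlation of deviations from the group means. NT kidneys and livers of the same number had correlations of 0.123, 0.368, 0.401 and 0.360, so the numbers may pair samples there. That reading comes from the data, not the labels. The main fits were unpaired, and their p-values do not use it. A block for the replicate number was fitted as an alternative only.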

Additional observations from a re-analysis of the deposited data

Results flagged for a closer look

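In 5 of 44 groups of 4 libraries (members and *Fos*, by tissue and vector), a single library lay far from the other 3 relative to the whole range. Chance flags about 1 in 20 groups, or 2.2 of 44. *Egr1* was at 54.8 CPM in kidney NT replicate 1, where the other NT kidneys were at 24.0 to 29.2 CPM. *Nr4a1* was low in kidney NT replicate 3, at 14.6 CPM against 24.4 to 26.1 CPM, and high in liver NT replicate 3, at 11.4 CPM against 3.65 to 4.78 CPM. *Dusp1* was at 69.5 CPM in kidney shFos replicate 3 against 40.9 to 44.7 CPM. *Ier3* was at 3.44 CPM in liver shFos replicate 2 against 1.55 to 1.58 CPM. What set these libraries apart was not tested.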

How the results depend on the processing

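In the kidney, 177 of 180 member values under the alternatives moved by less than the spread between replicates, and in the liver 144 of 144. That spread is of single libraries, and leaving out a library can hardly move a group mean by as much, so these counts say little about such omissions. Liver *Nr4a1* counted as unmoved though it went from -0.60 to -0.05 without NT replicate 3. So did liver *Btg2*, which went from -0.27 to 0.10 without NT replicate 4. The kidney called 0 genes with edgeR, but 2732 with DESeq2, 3 with no filter, 993 in a fit of all 16 libraries and 0 to 4126 with a library left out. Called kidney members numbered 0, but 4 with DESeq2, 1 (*Ier2*) in the fit of all 16 libraries and 0 to 2 with a library left out. The kidney member median of -0.53 became -0.40 with the GC offset, -0.37 with GC and length, -0.36 with GC and replicate block, and ran from -0.66 to -0.39 with a library left out. In the liver DESeq2 called 38 genes and 1 member, and the median of -0.44 ran from -0.65 to -0.24 with a library left out.

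Of the 8 members other than *Egr2* and *Egr3*, which passed the filter through the kidney alone, edgeR called 3 between tissues in NT libraries (60% of genes), but 4 with DESeq2 (63.2%), 5 with upper-quartile scaling (59.7%), 5 with total counts (82.6%) and 3 to 5 with a library left out (54.1% to 63.1%). In shFos libraries it called 4 (69.5% of genes), but 3 with upper-quartile scaling (69.1%), no filter (55.7%) or the GC offset (70.5%), 6 with total counts (84.8%) and 3 to 4 with a library left out (64.4% to 71.2%). With *Egr2* and *Egr3*, whose calls are not read, the count in NT libraries was 3. It was 4 with the replicate block (62.6% of genes), 5 with DESeq2 and 6 with upper-quartile scaling. Total counts gave 7, and leaving out a library gave 3 to 6. In shFos libraries the count with both genes was 5. It was 4 with upper-quartile scaling, no filter or the GC offset, 8 with total counts and 4 to 5 with a library left out. The shares of all genes for the other settings are those given above. Total counts raised the share of all genes called together with the count of members. Total counts moved the median of all genes to 1.08 (NT) and 0.98 (shFos), and with it the signs of *Egr1* (0.54) and *Dusp1* (0.53) in NT and of *Egr1* (0.13) and *Fos* (0.78) in shFos libraries; relative to that median no member changed sign. *Fos* in NT libraries was at -0.16 without liver NT 1 and -0.03 without kidney NT 1 (up to 0.32 with a library left out), and in shFos libraries at 0.091 without liver shFos 3 (from -0.32). In shFos libraries *Dusp1* was at -0.10, -0.02 and -0.19 without liver shFos 1, liver shFos 4 and kidney shFos 3 (up to 0.13), and *Btg2* at -0.022 without liver shFos 4 (up to 0.81). The cause of these sign changes with a library left out was not tested.

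With the replicate block, edgeR called 0 genes and 0 members in both shFos against NT contrasts, and 9313 genes between tissues in NT libraries, where it changed the call of *Egr2*, which is not read, and of no other member, and 10036 genes in shFos libraries, where it changed no member's call. Same-numbered samples correlated at -0.173 to 0.116 between NT and shFos kidneys, -0.261 to 0.0395 between NT and shFos livers and 0.0409 to 0.156 between shFos kidneys and livers, so no pairing was read from the numbers there.

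With 4 libraries a group, small differences of scarce transcripts such as *Egr2* and *Egr3* in the liver were not detectable. Floors cover counting error only.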
